A study of Homo sapiens with 6 samples.

Results

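Immune checkpoint ligands are surface or secreted proteins by which a cell restrains T cells, natural killer cells or macrophages. 9 genes of this kind were examined in the mRNA of 786-O cells with and without YB1 knockdown. They are CD274 (PD-L1), PDCD1LG2 (PD-L2), CD276 (B7-H3), VTCN1 (B7-H4), PVR (CD155), LGALS9 (galectin-9), SIGLEC15, CD47 and NT5E (CD73), and each was found by its symbol among the 20030 genes of the deposited table. The list was drawn up with the results of this knockdown known and was chosen by them in part, because SIGLEC15 was 1 of the genes higher in shYB1 cells by the criteria of a fold change of at least 2 and an unadjusted p under 0.05. Among the 10439 genes whose mean reached 1 FPKM there were 4 on the log2(FPKM + 0.1) scale, a number that depends on the setting, as it was 35 with no filter on low values, 7 with a pseudocount of 0.01 and 0 with a pseudocount of 1. Differences between shYB1 and vector cells are therefore given for the 9 genes as a description, with intervals and whether a gene was called, and with no p-value.

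786-O is an established renal cancer line of clear cell type. Cells received a lentiviral shRNA that targets YB1 (shYB1) or a scrambled shRNA (vector), were selected with puromycin, and were sequenced at passages 16 to 18, with 3 libraries in each group. Both groups therefore share the line, the viral vector and the selection. The RNA is from bulk cultures, in which fewer cells that express a gene and less RNA per cell cannot be told apart. The text of the series mentions several independent shRNAs, whereas the labels give 1 shYB1 group, and nothing in them says that the replicates are separate cultures, so the spread between libraries may be technical.

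The members act on several receptors. PD-L1 and PD-L2 bind PD-1 on T cells, and B7-H3 and B7-H4 are relatives of them in the B7 family whose receptors are less settled. CD155 binds TIGIT, CD96 and the activating receptor CD226, and galectin-9 binds TIM-3, the product of HAVCR2. CD47 is the signal by which cells avoid phagocytosis through SIRPα on macrophages. CD73 works as an enzyme that turns extracellular AMP into adenosine, a suppressor of T cells. Siglec-15 is a sialic acid-binding lectin, best known from osteoclasts and macrophages, which signals with DAP12 and can suppress T cells from the surface of tumor cells. In kidney cancer the PD-1 pathway is a target of therapy, and PD-L1 transcription responds to interferon through IRF1.

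YB1 is named for the Y-box, the letters CCAAT read on either strand, and the 250 bases before the annotated start sites of the members were searched for it. RefSeq (GRCh38.p14) gave 9 such windows for 8 of the members. CCAAT was found in 2 of the 9 windows, those of VTCN1 and of the upstream CD276 start, against 32.0% of 35116 windows over all genes. These windows precede the RefSeq starts, and GENCODE can place the gene's first base farther upstream. By the GENCODE spans, the windows of CD276, CD47, NT5E and LGALS9 lie within the gene, and the other windows reach into it in part. Both CCAAT matches also lie within the span of their gene. A simple form of the element to which interferon regulatory factors bind, GAAA followed by any 2 bases and GAAA, was searched on both strands too and was found in CD274 alone, as a pair of overlapping matches starting 208 and 202 bases before the start, against 3.02% of all windows. The stretches below show the interferon-type element of CD274, the upstream region of SIGLEC15, which holds neither, and the CCAAT of CD276, with the matched letters in capitals.
CD274, chr9:5450292-5450502, plus strand: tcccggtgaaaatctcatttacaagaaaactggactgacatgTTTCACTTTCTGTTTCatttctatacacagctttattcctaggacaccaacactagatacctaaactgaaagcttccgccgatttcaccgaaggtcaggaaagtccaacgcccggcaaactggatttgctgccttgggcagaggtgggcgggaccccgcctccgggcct
SIGLEC15, chr18:45825425-45825511, plus strand: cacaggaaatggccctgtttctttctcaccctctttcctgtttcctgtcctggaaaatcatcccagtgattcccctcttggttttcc
CD276, chr15:73684264-73684293, plus strand: gccaccgcggggCCAATccggcctcaggga
A match of letters is a description of the sequence, not a site of binding, and no binding was measured here.

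The libraries were alike in their totals, which were 282736 to 295887 FPKM (fragments mapped to a gene, scaled to transcript length and to the mapped fragments of the library). Fragment counts are not part of the table, so the depth is unknown, and the spacing of the lowest values gave relative depths of 0.986 to 1.09. This estimate is rough, with shYB1 replicate 1 as the reference. In the other libraries it rests on 94 to 221 genes, out of 888 to 973 with low values. YBX1, the gene of YB1, stood at 366.5, 372.8 and 377.9 FPKM without knockdown, against 166.7, 165.9 and 173.3 FPKM with it, a log2 fold change of −1.14 (limma adjusted p = 1.53e-08), as the labels say. All 8 markers fixed for the line, among them PAX8 and VIM, were above 1 FPKM. Of 14 markers of leukocytes and endothelium, 12 had a mean under 1 FPKM, and the summed level of all 14 was 2.66 to 5.37 FPKM in vector and 3.57 to 4.92 FPKM in shYB1 libraries. PTPRC, which encodes CD45, did not exceed 0.0164 FPKM in any library. The exceptions were CSF1R, which rose from 1.75 ± 0.235 to 2.64 ± 0.102 FPKM (log2 fold change 0.57, limma adjusted p = 0.00251), and LYZ, which ranged from 0.0704 to 2.87 FPKM within the vector group alone. The part of these markers in the differences below was not tested.

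The levels of the members in vector cells spanned several orders of magnitude. FPKM are relative to transcript length and can be set side by side between genes. CD276 had the highest mean, 37.0 ± 0.719 FPKM, at the 93.9th percentile of all listed genes. PVR followed at 33.2 ± 0.883 FPKM, NT5E at 20.7 ± 0.761 FPKM and CD47 at 9.10 ± 0.276 FPKM (SD, n = 3 each). The libraries of these 4 genes did not overlap with those of their neighbours in the order. The spread between libraries does not measure errors that all of them share, such as in the transcript length used for a gene. CD274 at 1.24 ± 0.125 FPKM lay near the middle of all listed genes, at the 49.8th percentile, and SIGLEC15 at 0.926 ± 0.429 FPKM was not separated from it, since the libraries of the 2 genes overlapped. PDCD1LG2 was lower again at 0.561 ± 0.0794 FPKM. LGALS9 and VTCN1 were at 0.0454 ± 0.0370 and 0.00703 ± 0.00610 FPKM and were near 0. CD276, PVR and NT5E together made up 88.1% to 88.8% of the summed FPKM of the 9 genes in each of the 6 libraries.

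**Figure D1:**
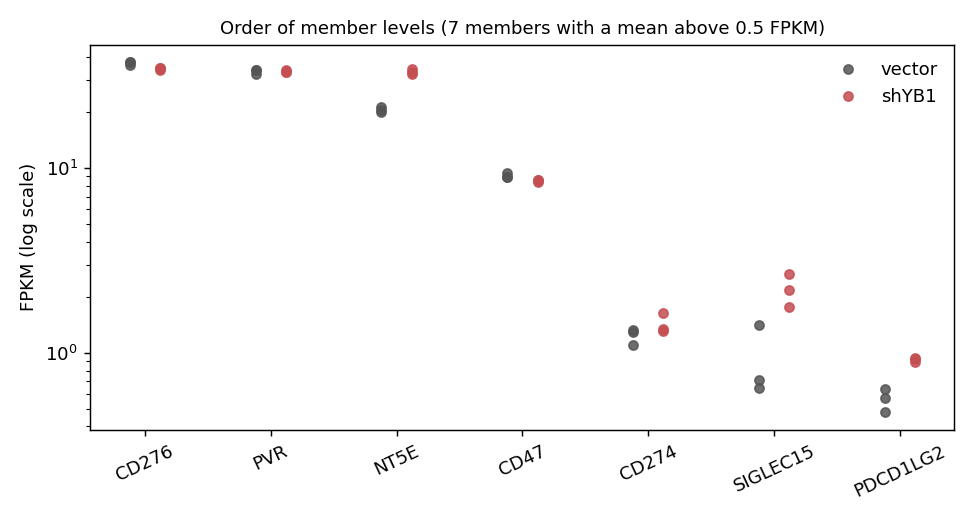
FPKM on a log axis of the 7 members with a mean above 0.5 FPKM, ordered by their mean in vector cells; each point is a library. CD276, PVR and NT5E lie apart in vector libraries, and NT5E reaches the level of PVR in shYB1 libraries, at 33.2 and 33.4 FPKM on average.

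SIGLEC15 had the largest log2 fold change of the 6 members tested, and it was put on the list by this same difference. GENCODE places the gene on the plus strand of chromosome 18 (GRCh38), between 45825512 and 45844080. Vector replicates 1, 2 and 3 had 0.717, 0.642 and 1.42 FPKM, against 2.67, 2.20 and 1.77 FPKM for the shYB1 replicates in the same order. Every shYB1 library lay above every vector library, but vector replicate 3 was well above the other vector libraries and came closer to shYB1 replicate 3 than to them. The ratio of the group means was 2.39, and the log2 fold change on the log2(FPKM + 0.1) scale was 1.23 with a 95% interval of 0.627 to 1.83. The wide interval goes with a large spread between replicates: the standard deviation within groups was 0.445 on the log2 scale, larger than in 98.2% of the 1589 tested genes within 1.5 times its mean FPKM, whose median was 0.121. With any single library left out the log2 fold change stayed between 1.03 and 1.55, the highest without vector replicate 3. With a pseudocount of 1 in place of 0.1 it was 0.75. The vector mean of SIGLEC15 lies below the limit of 1 FPKM set for testing, so the gene entered the test through its level in shYB1 cells.

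The genes that moved most like SIGLEC15 over the 6 libraries were CTSW, N4BP3 and KRT81. Likeness was the root mean square distance between profiles of log2(FPKM + 0.1), each centred on its own mean, and it was 0.271, 0.320 and 0.338 for these genes. All were low in vector cells, at 0.714 ± 0.147, 0.751 ± 0.114 and 0.798 ± 0.0505 FPKM, against 1.45 ± 0.156, 1.51 ± 0.117 and 2.17 ± 0.127 FPKM after knockdown (SD, n = 3 each). The profiles share libraries and the same contrast of groups, and nothing about a common function follows from them. None of the other 14 Siglec genes listed reached a mean of 1 FPKM, 7 of them were at 0 in all 6 libraries, and the highest single value was 0.117 FPKM. TYROBP, the gene of the signaling partner DAP12, was listed at 0 in all libraries.

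NT5E was the only member above 5 FPKM that was called, and it was higher with knockdown. The gene spans 85449584 to 85495791 of chromosome 6, plus strand. Its level was 20.0, 21.5 and 20.6 FPKM in vector replicates and 33.0, 34.3 and 32.4 FPKM in shYB1 replicates. The groups were far apart, with a gap between them several times the range within either. The ratio of the means was 1.61, and the log2 fold change was 0.68 with a 95% interval of 0.588 to 0.774. The spread within groups, 0.0478 on the log2 scale, was ordinary for its level, as the median of 1456 genes within 1.5 times its mean was 0.0517. Over all alternatives of scaling, filter, pseudocount, variance prior, block and left-out library the log2 fold change lay between 0.625 and 0.709. In vector cells the level of NT5E was 0.612 to 0.636 times that of PVR, and in shYB1 cells it was 0.959 to 1.03 times that of PVR. The profiles nearest to NT5E were those of CDK15, ZNF621 and KRT80, at distances of 0.0361, 0.0454 and 0.0482, and KRT80 was also near it in level, at 19.2 ± 0.496 FPKM without and 30.2 ± 0.642 FPKM with knockdown (SD, n = 3 each).

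**Figure D2:**
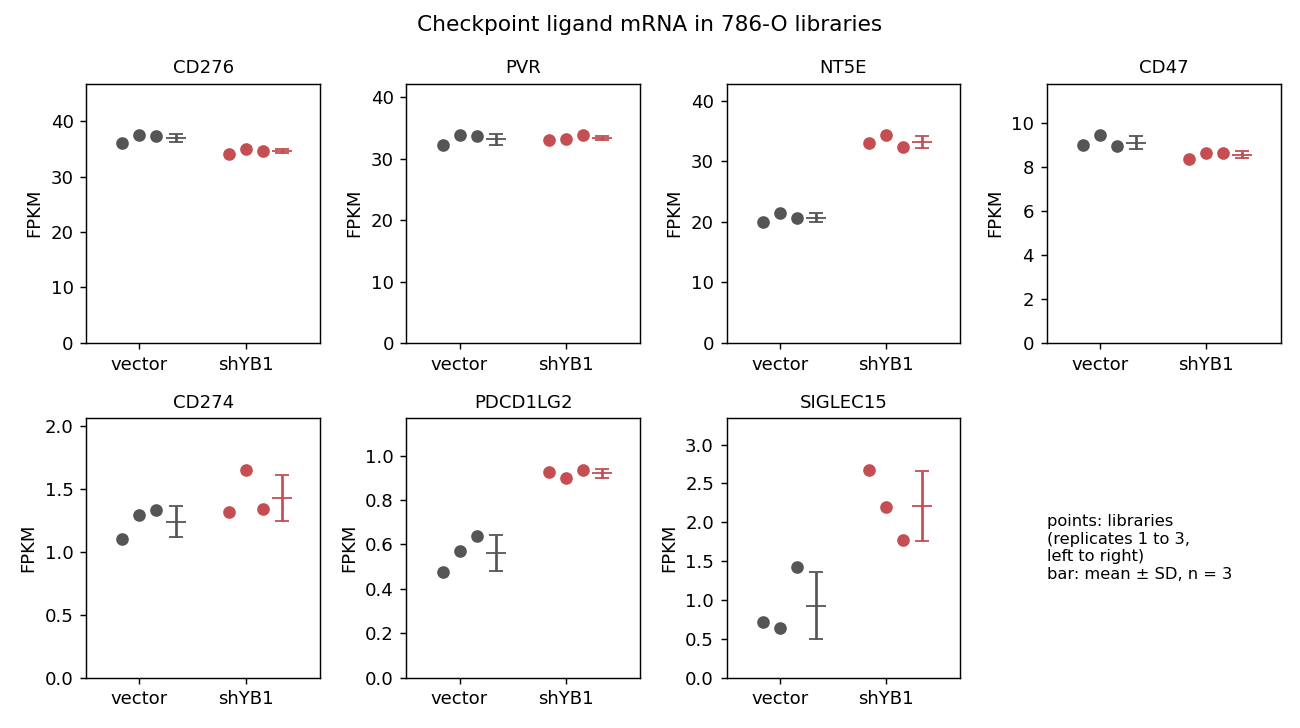
FPKM of the 7 members with a mean above 0.5 FPKM in each library (points), with the mean ± SD of each group of 3 beside them; every axis starts at 0. NT5E, PDCD1LG2 and SIGLEC15 are higher in all shYB1 libraries, CD276 and CD47 are lower in all of them by a small margin, and the groups overlap for PVR and CD274.

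The ligands of PD-1 were both low, and they lie close together on chromosome 9, CD274 from 5450503 to 5470566 and PDCD1LG2 from 5510570 to 5571254, both on the plus strand. CD274 had 1.10, 1.29 and 1.33 FPKM in vector replicates and 1.32, 1.65 and 1.34 FPKM in shYB1 replicates. The groups overlapped, and the higher shYB1 mean rested mainly on replicate 2. The log2 fold change of 0.19 had a 95% interval of −0.071 to 0.451, which includes 0, and without shYB1 replicate 2 it was 0.093. PDCD1LG2 had 0.478, 0.570 and 0.636 FPKM in vector replicates and 0.928, 0.897 and 0.934 FPKM in shYB1 replicates. All shYB1 libraries were above all vector libraries, with a ratio of the means of 1.64. Its mean of 0.741 FPKM kept it out of the test, and in the fit with no filter on low values its log2 fold change was 0.63 with a 95% interval of 0.350 to 0.913. PDCD1LG2 was called in that fit, where 13.7% of the 15988 genes tested were called. The share of PDCD1LG2 in the summed FPKM of the PD-1 ligands was 30.3% to 32.3% in vector libraries and 35.3% to 41.3% in shYB1 libraries, with no overlap.

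The other well expressed ligands moved little. CD276 (chromosome 15, 73683966 to 73714518) had 36.1, 37.4 and 37.3 FPKM in vector replicates and 34.1, 34.9 and 34.6 FPKM in shYB1 replicates. The groups did not overlap and the libraries were close, with a spread that only 7.1% of genes of like level went below, but the log2 fold change was only −0.097 with a 95% interval of −0.173 to −0.021, and the gene was not called at an adjusted p under 0.05 over all genes. It was called with median-of-ratios scaling (log2 fold change −0.15), with quantile normalization (−0.14) and with the filter at 5 FPKM. CD47 (chromosome 3, 108043094 to 108091862) had 8.97, 9.42 and 8.92 FPKM in vector replicates and 8.37, 8.63 and 8.64 FPKM in shYB1 replicates. Its groups did not overlap either, and the log2 fold change was −0.089 with a 95% interval of −0.197 to 0.018. PVR (chromosome 19, 44643798 to 44663583) had 32.2, 33.8 and 33.7 FPKM in vector replicates and 33.1, 33.2 and 33.8 FPKM in shYB1 replicates. The shYB1 libraries lay at the upper part of the vector range, and the interval of the log2 fold change was −0.074 to 0.086. PVR has no direction here, since the log2 fold change of 0.006 turned to −0.049 with median-of-ratios scaling. CEACAM19 overlaps PVR on the same strand, and 2.0% of the 50-base stretches in PVR transcripts occur there too.

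LGALS9 (chromosome 17, 27629798 to 27649560) and VTCN1 (chromosome 1, 117143587 to 117210960, minus strand) were hardly detected. LGALS9 had 0.0375, 0.0131 and 0.0857 FPKM in vector replicates, 0.0544 FPKM in shYB1 replicate 1, and was listed at 0 in the other shYB1 libraries. VTCN1 had 0.0103 and 0.0108 FPKM in vector replicates 1 and 2 and 0.0340 FPKM in shYB1 replicate 3, and was listed at 0 elsewhere. No fold change is given at these levels, at which single fragments set the values. LGALS9 also shares 13.2% of its 50-base words with other genes, chiefly its near copy LGALS9C, followed by AC015688.4, which overlaps it on the same strand, and the related LGALS9DP and LGALS9B, so fragments may be assigned among them in part.

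Taking the 9 genes as a list, 6 passed the filter of a mean of at least 1 FPKM and entered the limma fit over 10439 genes. At an adjusted p under 0.05, 2 of the 6 were higher with knockdown (SIGLEC15 and NT5E) and 0 were lower, where 18.7% of all genes tested were called higher, 6.93% lower and 25.7% in either direction. The groups did not overlap in 4 of the 6 members, against 42.6% of all genes tested. Nothing is read from these shares, since the list was made with this comparison known, and SIGLEC15 was chosen by it and entered the test only through its level in shYB1 cells. The median log2 fold change was 0.098 over the 6 members and 0.055 over all genes tested. Higher genes made up 73.0% of all calls with FPKM as deposited and 48.7% after median-of-ratios rescaling. After that rescaling SIGLEC15 and NT5E were still called higher, at log2 fold changes of 1.18 and 0.63, and CD276 was called lower. The summed FPKM of the 9 genes was 99.6 to 105 in vector and 114 to 116 in shYB1 libraries. The largest change in FPKM was that of NT5E, from 20.7 to 33.2 on average, and the other members moved in both directions.

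**Figure D3:**
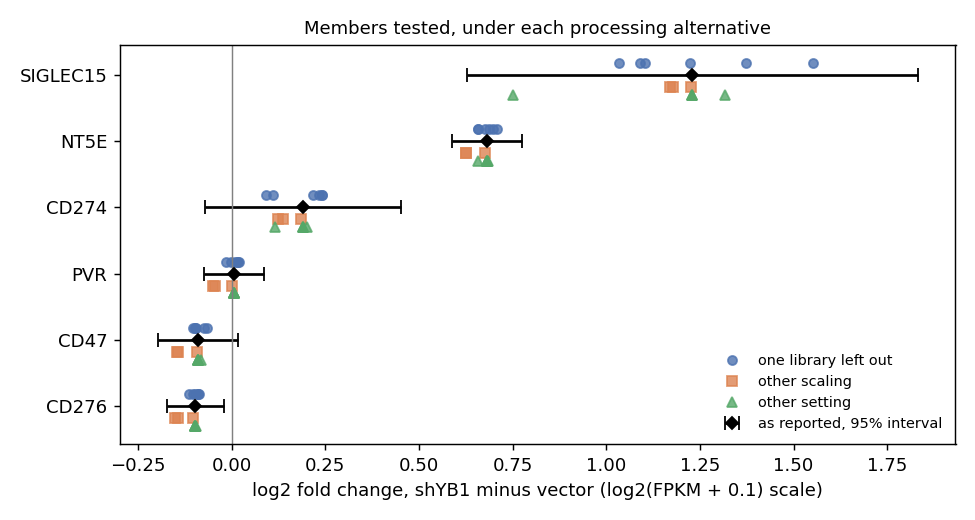
Log2 fold change (shYB1 minus vector, log2(FPKM + 0.1) scale) of the 6 members tested, with its 95% interval (black) and its value under every alternative (colored points). SIGLEC15 and NT5E stay above 0 throughout, at 0.75 or more and 0.625 or more, while PVR lies on either side of 0. Every alternative reuses the libraries whose results were known when the members were chosen.

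Other ligands of immune receptors were counted next. This list and those below were drawn up with earlier results of these data known, so nothing is read from their shares either. Of 44 genes listed, 21 were tested. Of these, knockdown cells had 5 lower and 2 higher (adjusted p under 0.05), where 6.93% of all genes tested were lower and 18.7% higher. With median-of-ratios scaling the calls were 7 down and 1 up, where 12.0% of all genes were lower, 11.4% higher and 23.4% either. As deposited, the median log2 fold change was −0.071. Among binders of inhibitory receptors, 5 of 10 were called, against 25.7% of all genes tested. CD24, a ligand of Siglec-10, fell from 1092 ± 28.7 to 827 ± 18.4 FPKM (SD, n = 3 each; log2 fold change −0.40, adjusted p = 2.85e-05). LGALS3, a galectin that binds LAG-3, fell by 0.19 on the log2 scale (adjusted p = 0.00380), and HLA-E, the ligand of NKG2A, fell by 0.19 (adjusted p = 0.0136), a call lost with a variance prior without trend (adjusted p = 0.0517). LGALS1, the gene of galectin-1, rose from 1834 ± 105 to 2152 ± 93.1 FPKM (log2 fold change 0.23, adjusted p = 0.00549), and was not called with quantile normalization (adjusted p = 0.156). HMGB1, a nuclear protein that binds TIM-3 when released, rose by a log2 fold change of 0.13 (adjusted p = 0.0284) that was not called with median-of-ratios scaling (adjusted p = 0.153) or without vector replicate 1 or shYB1 replicate 2 or 3 (up to 0.0920), and 10.9% of its 50-base words are shared, mostly with its pseudogenes.

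Of 6 costimulatory genes tested, 2 were called, VCAM1 and ICAM1, both lower, where 6.93% of all genes tested were lower. VCAM1 fell from 111 ± 3.01 to 65.7 ± 3.07 FPKM and ICAM1 from 75.6 ± 1.38 to 44.6 ± 0.973 FPKM (SD, n = 3 each), with a log2 fold change of −0.76 for each and adjusted p of 1.63e-06 and 4.74e-07 from limma. Both bind integrins on leukocytes. ICAM1 shares 21.2% of its 50-base words with other annotated transcripts, nearly all at the same place in the genome, so part of its value cannot be assigned with certainty. The remaining 4 of the 6 costimulatory genes tested were not called, among them TNFSF9 (4-1BB ligand), which had 76.4 ± 2.23 and 72.3 ± 0.809 FPKM in vector and shYB1 cells, and CD70, with a log2 fold change of 0.07 and a 95% interval of −0.035 to 0.175. CD80 and CD86, the ligands of CTLA-4 and CD28, were listed at 0 in all libraries. Of the ligands of activating natural killer cell receptors, 0 of 5 tested were called by limma, where 25.7% of all genes tested were called. Of these ligands 1 had an unadjusted p under 0.05, and 1 was called lower with median-of-ratios scaling, against 12.0% of all genes.

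The genes around CD73 were followed along the route of extracellular adenosine. ENTPD1 (CD39), which makes AMP from ATP and ADP upstream of CD73, was low in both groups, at 0.0832 ± 0.0246 and 0.106 ± 0.0335 FPKM. ENPP1, which makes AMP from ATP directly, had 2.14 ± 0.0625 and 2.42 ± 0.258 FPKM and was not called. ENPP3, a related ectoenzyme, fell from 3.46 ± 0.356 to 2.58 ± 0.227 FPKM (log2 fold change −0.41, adjusted p = 0.0109). Downstream, SLC29A1, the transporter that takes adenosine into cells, rose from 33.9 ± 1.43 to 37.9 ± 0.614 FPKM (log2 fold change 0.16, adjusted p = 0.0145), a call that was lost after median-of-ratios rescaling (adjusted p = 0.0537) and without vector replicate 1 (adjusted p = 0.0521). DPP4, which anchors adenosine deaminase at the surface, fell by 0.18 on the log2 scale (adjusted p = 0.00345). The receptors ADORA1 and ADORA2A, at 14.6 ± 0.277 and 2.78 ± 0.302 FPKM in vector cells, were not called. In all, 3 of the 8 genes tested of this route were called, 1 higher and 2 lower. Of all genes tested 25.7% were called, 18.7% higher and 6.93% lower.

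All 6 tested genes of the suppressive factor list were called, 4 lower and 2 higher, where 25.7% of all genes tested were called. Nothing is read from this share, since the list was drawn up with earlier results of these data known. PTGS2 (COX-2), which starts prostaglandin synthesis, fell from 14.7 ± 0.822 to 7.94 ± 0.454 FPKM (log2 fold change −0.88, adjusted p = 7.17e-06). CSF1, the growth factor of macrophages, fell from 131 ± 3.39 to 93.4 ± 0.760 FPKM (log2 fold change −0.49, adjusted p = 5.84e-06). IL4I1, a secreted amino acid oxidase, fell by 0.26 on the log2 scale (adjusted p = 0.0154), and was not called without shYB1 replicate 1 (adjusted p = 0.0507). Its value is uncertain, as 10.5% of its 50-base words are shared, mostly with NUP62. PTGES, the prostaglandin E synthase, rose by a log2 fold change of 0.31 (adjusted p = 0.0387), and ARG2, a mitochondrial arginase, by 0.17 (adjusted p = 0.0176), with 33.6% of the 50-base words of ARG2 shared with VTI1B. Neither rise was called after median-of-ratios rescaling (adjusted p = 0.0805 and 0.0711). With a library left out, PTGES lost its call without replicate 1 or 2 of vector or replicate 1 or 3 of shYB1 (adjusted p up to 0.113), and ARG2 without vector replicate 1 or shYB1 replicate 3 (up to 0.0618). With the route of adenosine, 9 of 14 tested genes were called, 6 lower and 3 higher, against 25.7% of all genes. After that rescaling 6 were lower and 0 higher, against 12.0% and 11.4% of all genes.

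**Figure D4:**
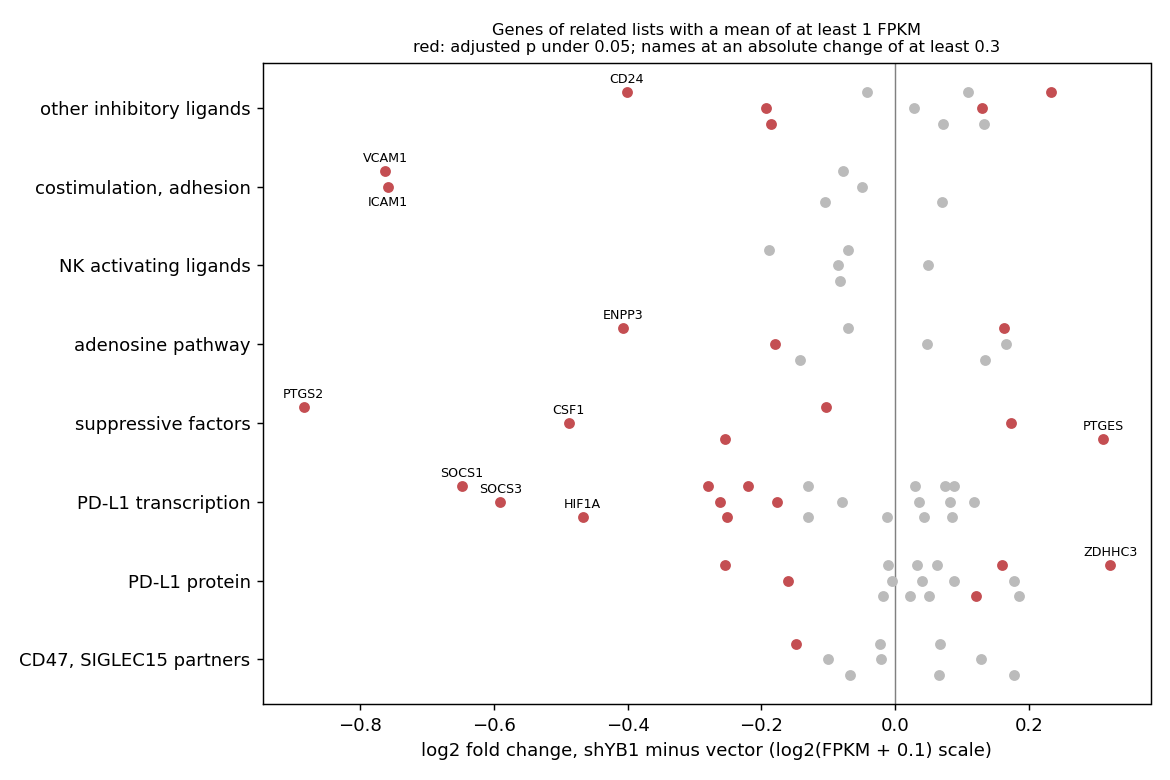
Log2 fold change (shYB1 minus vector, log2(FPKM + 0.1) scale) of every gene with a mean of at least 1 FPKM in the lists of related genes, 1 list a row; red points had an adjusted p under 0.05 from limma. PTGS2, VCAM1 and ICAM1 lie farthest to the left, and the largest rises, ZDHHC3 and PTGES, stay at 0.32 and 0.31.

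Regulators of PD-L1 were measured beside CD274, which itself was not called. Of 20 tested genes that act on its transcription, 8 were lower and 0 higher (1 higher at an unadjusted p under 0.05), against 6.93% and 18.7% of all genes tested. SOCS1 and SOCS3, feedback inhibitors of cytokine signaling, fell by 0.65 and 0.59 on the log2 scale (adjusted p = 0.0131 and 4.36e-06), SOCS3 from 66.5 ± 0.577 to 44.2 ± 1.68 FPKM, and SOCS1 was not called without shYB1 replicate 1 (adjusted p = 0.0535). HIF1A fell from 65.4 ± 2.35 to 47.3 ± 0.814 FPKM (log2 fold change −0.47, adjusted p = 2.20e-05). EPAS1, the gene of HIF-2α on the same list, had 84.3 ± 1.05 and 79.8 ± 1.11 FPKM and was not called. Its log2 fold change was −0.079 with a 95% interval of −0.147 to −0.012. IRF1, which binds elements of the kind printed above, had 11.4 ± 0.501 and 11.7 ± 0.286 FPKM and was not called (95% interval of the log2 fold change −0.066 to 0.152). Of 16 tested genes that act on PD-L1 protein, 3 were higher and 2 lower. CMTM4 fell from 15.9 ± 0.295 to 13.3 ± 0.410 FPKM (adjusted p = 0.00236), while CMTM6, the better known stabilizer of PD-L1 at the surface, had 21.2 ± 1.02 and 21.5 ± 1.03 FPKM and was not called. ZDHHC9, which palmitoylates PD-L1, fell by 0.16 on the log2 scale (adjusted p = 0.0459), a call lost without any of the 6 libraries in turn (adjusted p 0.0530 to 0.148). The rises were in ZDHHC3, COPS5 and STT3B, at log2 fold changes of 0.32, 0.16 and 0.12 (adjusted p = 0.0232, 0.0227 and 0.0259), and after median-of-ratios rescaling none of the 3 was called (adjusted p = 0.0549, 0.0970 and 0.155). Each of these rises also lost its call without some single libraries: ZDHHC3 without replicate 2 or 3 of either group (up to 0.0910), COPS5 without replicate 1 or 2 of either group (up to 0.0842), and STT3B without any library but vector replicate 3 (up to 0.0854). The lists together held 10 lower and 3 higher of 36 tested genes, against 6.93% and 18.7% of all genes. After that rescaling 12 were lower and 0 higher, against 12.0% and 11.4% of all genes. These lists too were drawn up with earlier results known, and nothing is read from the shares.

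Of 9 tested partners and modifying enzymes of CD47 and SIGLEC15, 1 was called, against 25.7% of all genes. SIRPA, the receptor of CD47, was itself expressed in the tumor cells and fell from 61.4 ± 0.860 to 55.4 ± 0.842 FPKM (log2 fold change −0.15, adjusted p = 0.00768), with 15.1% of its 50-base words shared, mostly with SIRPB1. THBS1, which encodes thrombospondin-1, another ligand of CD47, had 27.2 ± 0.988 and 29.7 ± 1.09 FPKM and an adjusted p of 0.0516. QPCTL, the enzyme that modifies CD47 for binding to SIRPα, had a log2 fold change of −0.02 with a 95% interval of −0.177 to 0.130, and SYK, a kinase downstream of DAP12, had 4.49 ± 0.139 and 5.10 ± 0.372 FPKM, and neither was called.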

How the data were processed

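The authors deposited FPKM per gene for 3 vector and 3 shYB1 libraries. The submitters' processing notes name GRCh38, Trimmomatic, HISAT2, Cufflinks, HTSeq and DESeq, without versions or roles, and strandedness is not given in the sources used here. The table's 6 library columns were matched to samples by condition and replicate number, leaving 0 unused, and annotation columns (GO, KEGG) were not used. The 10439 genes whose mean FPKM reached 1 were put on the log2(FPKM + 0.1) scale, and shYB1 was set against vector in limma 3.58.1 (R 4.3.3; trend, robust prior, two-sided, Benjamini-Hochberg adjustment over all genes tested), without a replicate block. Positions and 50-base words shared between transcripts are from GENCODE release 29 (GRCh38), and start-site windows from RefSeq. Python 3.11.15 was used for tables and figures.

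The members and lists were chosen with earlier results of these data known. Genes named are the 9 members, YBX1, up to 3 called genes with the largest rise and 3 with the largest fall per list, direct receptors, enzymes or partners of members, and the 3 nearest profiles of each called member with a fold of at least 1.5. IRF1, EPAS1, CMTM6, CD70, TNFSF9, CD80, CD86, PTPRC, PAX8, VIM, CSF1R and LYZ were named after their values were seen. Alternatives were other pseudocounts, filters and scalings, a prior without trend, a replicate block and each library left out.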

Additional observations from a re-analysis of the deposited data

How the results depend on the processing

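NT5E was called higher under every alternative. The alternatives reuse the libraries whose results were known when the members were chosen, so this is no independent support. SIGLEC15 was called under each that tested it, all but the filter at 5 FPKM, which says nothing of its stability, since this difference put it on the list. PVR kept no direction: its log2 fold change was −0.049 with median-of-ratios size factors and −0.044 with quantile normalization, and it ranged from −0.016 to 0.019 with a library left out. The number of CD47 and SIGLEC15 partners called was 2 in place of 1 with the filter at 5 FPKM, median-of-ratios size factors, quantile normalization and the replicate block, and 1 to 2 with a library left out. Over all genes, 1861 to 2834 were called under the alternatives, out of 6547 to 15988 tested. The counts of the other lists stayed within 1.5 times. Of 459 values of named genes under alternatives, 397 kept their direction and call, 55 lost the call, 3 gained it and 4 changed sign.

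With the replicate block 2 members were called, as without it, where 2834 of 10439 genes tested were called. ZDHHC9 was lost with the block (adjusted p = 0.0662 from limma). Deviations from group means correlated at −0.169 to −0.00824 across genes for same-numbered libraries and at −0.0507 to 0.113 for others, so the numbers were not taken to pair the samples. Depth is unknown, which limits what can be said of LGALS9, VTCN1 and PDCD1LG2.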

Other observations

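Of 12 receptors of T cells, natural killer cells and dendritic cells that bind checkpoint or costimulatory ligands, 4 were listed at 0 in all libraries and none had a mean of 1 FPKM over the 6. HAVCR2, the gene of the galectin-9 receptor TIM-3, was the highest of them. Vector cells had 1.17 ± 0.151 FPKM and knockdown cells 0.740 ± 0.108 FPKM (SD, n = 3 each), with groups that did not overlap, and was below the limit for testing.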
